A study of Mus musculus with 12 samples.

Results

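The 10 genes described here encode signalling proteins that fibroblasts can secrete: Il6, Lif, the chemokines Cxcl1, Cxcl5, Cxcl12, Ccl2 and Ccl7, the growth factor Csf1, the TNF family ligand Tnfsf15, and Il1rl1. They were taken by symbol from a count table of 24207 genes, and each of the 10 symbols matched 1 row. RNA was sequenced from mouse embryonic fibroblasts of strain C57BL/6 in 12 libraries, 3 in each of 4 groups. All cells carried FUW-OSKM, which expresses Oct4, Sox2, Klf4 and Myc (the reprogramming factors) under doxycycline, together with the transactivator FUW-M2rtTA. In the double knockdown, cells received doxycycline and short hairpin RNAs against Trim28, a chromatin corepressor, and Setdb1, a histone methyltransferase that it recruits. In the Trim28 knockdown, cells received doxycycline and only the hairpin against Trim28. The induced control received doxycycline and a scrambled hairpin, and the uninduced cells had the scrambled hairpin and no induction. All 4 groups were sampled at day 7. Every group was cultured in ES medium with feeder fibroblasts that had been irradiated, and the labels do not say that feeders were removed, so RNA of the feeders cannot be told apart from that of the cells carrying the vectors. The labels do not state that replicates came from separate cultures, so each p-value reflects the spread among these libraries alone, and that spread may be technical.

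Cytokines and chemokines are small secreted proteins that bind receptors on nearby cells, and stressed, damaged or senescent fibroblasts are known to secrete many of them. Il6 and Lif belong to a cytokine family whose receptors share the subunit Il6st (gp130) and signal through JAK kinases and STAT transcription factors, and Lif is also the factor that maintains mouse embryonic stem cells in culture. CXC chemokines such as Cxcl1 and Cxcl5 draw neutrophils, the CC chemokines Ccl2 and Ccl7 draw monocytes, and transcription of many of these genes is known to depend on NF-kappaB, AP-1 and C/EBP factors. The name given to the set speaks of stress, and no library was labelled for a stress treatment. Il1rl1 encodes ST2, the receptor of the cytokine Il33, which exists in a membrane form and a secreted form, and gene counts do not separate these forms.

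Promoter sequences were available for 7 of the 10 genes, in RefSeq with build GRCm38.p6. Ccl2, Ccl7 and Cxcl5 had no entry. The 250 bases before the RefSeq start are shown for Il6, Lif, Cxcl1 and Csf1, because each holds a match to an inflammatory motif and the 4 genes moved in different directions. Il1rl1 also held a match and is not shown. Positions depend on the start used. Annotated exon covered 11 bases of the Lif window and 4 of the Cxcl1 window, and the deposited start of Il6 is 30013161, beyond the end of its window. Capitals mark the matches, and each line runs in the direction of transcription. The windows are chr5:30012864-30013113 on the plus strand for Il6, chr11:4257318-4257567 on the plus strand for Lif, chr5:90890995-90891244 on the plus strand for Cxcl1, and chr3:107760470-107760719 on the minus strand for Csf1.
Il6: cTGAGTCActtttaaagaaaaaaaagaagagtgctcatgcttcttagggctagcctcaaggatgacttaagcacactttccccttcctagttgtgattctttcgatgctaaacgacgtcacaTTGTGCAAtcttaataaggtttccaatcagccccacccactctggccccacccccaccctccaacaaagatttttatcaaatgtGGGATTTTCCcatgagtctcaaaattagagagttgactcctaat
Lif: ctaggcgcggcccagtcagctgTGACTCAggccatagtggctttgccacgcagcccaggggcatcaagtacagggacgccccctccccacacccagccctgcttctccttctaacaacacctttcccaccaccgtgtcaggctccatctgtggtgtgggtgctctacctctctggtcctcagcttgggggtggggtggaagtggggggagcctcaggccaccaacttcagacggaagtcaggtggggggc
Cxcl1: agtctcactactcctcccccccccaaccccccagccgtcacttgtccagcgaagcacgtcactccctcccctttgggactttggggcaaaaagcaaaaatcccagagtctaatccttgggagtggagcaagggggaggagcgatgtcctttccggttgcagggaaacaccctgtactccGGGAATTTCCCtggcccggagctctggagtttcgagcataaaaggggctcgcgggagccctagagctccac
Csf1: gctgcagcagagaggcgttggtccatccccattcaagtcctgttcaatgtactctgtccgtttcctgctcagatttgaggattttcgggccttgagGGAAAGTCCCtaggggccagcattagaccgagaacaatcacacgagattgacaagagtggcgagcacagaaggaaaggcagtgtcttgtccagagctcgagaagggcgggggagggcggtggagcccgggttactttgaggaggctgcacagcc
Both strands were searched for the NF-kappaB consensus, for AP-1 (TGANTCA), for C/EBP (TTGCNNAA) and for STAT (TTCNNNGAA). Il6 held matches to 3 of these motifs: an NF-kappaB match, GGGATTTTCC, with its first base at -44 from the start, a C/EBP match, TTGTGCAA, at -128, and an AP-1 match, TGAGTCA, at -249. Lif held an AP-1 match, TGACTCA, at -228. Cxcl1 held a pair of overlapping NF-kappaB matches, GGGAATTTCC at -71 and GGAATTTCCC at -70, and Csf1 an NF-kappaB match, GGAAAGTCCC, at -154. Of the 2 starts listed for Il1rl1, the first held a C/EBP match, TTGCATAA, at -34. None of the 4 motifs was found in the windows of Cxcl12 and Tnfsf15, and STAT letters were found in none of the 7 genes. Among 32851 mouse promoters cut to the same 250 bases, 3.9% held the NF-kappaB consensus, 6.75% AP-1, 9.56% C/EBP and 7.02% STAT. A match describes these letters and does not show that a factor binds there.

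Total counts were 11906701 to 19191649 per library, so 3 counts, the floor used here, correspond to 0.150 to 0.243 CPM (counts per 1000000 mapped counts, scaled with the trimmed mean of M-values). Trim28 averaged 103 ± 6.4 CPM in the double knockdown and 58.4 ± 5.9 CPM in the Trim28 knockdown, against 328 ± 38 CPM in the induced control (SD, n = 3 each), and fell in both (log2 -1.67 in the double and -2.49 in the Trim28 knockdown). Trim28 was thus less depleted in the double knockdown. In any difference between the knockdowns, the Setdb1 hairpin and the weaker loss of Trim28 cannot be told apart. Setdb1 averaged 63.1 ± 8.2 CPM in the double knockdown, 122 ± 1.4 CPM in the Trim28 knockdown, 81.2 ± 4.3 CPM in the induced control and 60.7 ± 4.3 CPM in uninduced cells (SD, n = 3 each), so its level under its own hairpin overlapped that of uninduced cells. All 12 fibroblast markers passed the filter on low counts, and their summed level was 27712 to 31338 CPM in the double knockdown, 22635 to 24696 CPM in the Trim28 knockdown, 23541 to 31649 CPM in the induced control and 40444 to 46970 CPM in uninduced cells. The summed level of 8 epithelial markers was 1078 to 1338 CPM in the double knockdown, 1879 to 2140 CPM in the Trim28 knockdown, 1899 to 2395 CPM in the induced control and 25.3 to 28.4 CPM in uninduced cells. The 12 macrophage markers summed to 12.2 to 14.7 CPM in the double knockdown, 15.4 to 18.1 CPM in the Trim28 knockdown, 21.7 to 23.9 CPM in the induced control and 8.28 to 11.2 CPM in uninduced cells, and the leukocyte gene Ptprc was at most 0.487 CPM in any library. Of the 4 macrophage markers tested, 2 rose and 1 fell with induction, where 65.3% of all tested genes rose or fell. Itgam rose from 0.406 CPM in uninduced cells to 7.46 CPM in the induced control (log2 4.17). Cd68 rose from 3.12 to 11.4 CPM (log2 1.87), and Lyz2 fell from 2.55 to 0.932 CPM (log2 -1.40). The 9 mast cell markers in the table summed to 46.5 to 51.9 CPM in the double knockdown, 70.2 to 76.3 CPM in the Trim28 knockdown, 61.8 to 71.9 CPM in the induced control and 18.8 to 25.5 CPM in uninduced cells, almost all of it Gata2, while the mast cell protease gene Cpa3 was at most 0.0643 CPM. The 8 endothelial markers summed to 45.7 to 53.8 CPM in the double knockdown, 70.5 to 74.6 CPM in the Trim28 knockdown, 47.6 to 61.0 CPM in the induced control and 11.8 to 12.98 CPM in uninduced cells, with the endothelial cadherin Cdh5 at most 0.444 CPM. Of the 5 endothelial markers tested, 4 rose and 1 fell with induction. Tek, which made up most of the sum, rose from 7.43 CPM in uninduced cells to 46.6 CPM in the induced control (log2 2.64). Tie1 rose from 0 to 3.73 CPM and Pecam1 from 0.192 to 1.01 CPM, while Kdr fell from 3.99 to 1.44 CPM (log2 -1.47). In these bulk samples fewer fibroblast-like cells and less RNA per cell cannot be told apart.

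A gene was called when its adjusted p was under 0.05 in edgeR's quasi-likelihood test, with Benjamini-Hochberg adjustment over the 14520 genes that passed the filter, all 10 cytokine genes among them. In the double knockdown against the induced control 7 of the 10 genes rose and 2 fell, beside 36.7% of all tested genes called in either direction (18.1% rose and 18.5% fell). In the Trim28 knockdown against the induced control 2 rose and 4 fell, beside 24.9% of all genes (13.1% rose and 11.8% fell). These comparisons share the induced control libraries. In the double knockdown against the Trim28 knockdown 8 rose and 0 fell, beside 21.7% of all genes (10% rose and 11.7% fell). Without double knockdown library 2, described further on, 4 rose. Trim28 itself was higher in the double knockdown, so these rises cannot be assigned to the Setdb1 hairpin. Marker genes moved in the same comparisons, and their part in these counts was not tested: of 12 fibroblast markers 6 rose and 0 fell between the knockdowns, 4 rose and 4 fell in the double and 4 rose and 6 fell in the Trim28 knockdown against the induced control, and 2 rose and 8 fell in the induced control against uninduced cells. Of 8 epithelial markers 8 fell between the knockdowns, 8 fell in the double and 3 in the Trim28 knockdown against the induced control, and 8 rose with induction. With single libraries left out, the fibroblast markers called were as few as 3 between the knockdowns (without double knockdown library 1 or Trim28 knockdown library 3) and 5 in the Trim28 knockdown (without induced control library 3; 6 without Trim28 knockdown library 2), and 1 epithelial marker was called there without Trim28 knockdown library 2 or 3 or induced control library 3. In the induced control against uninduced cells 1 rose and 6 fell. Taken in either direction this share was close to that of all genes, of which 65.3% were called. By direction it was not close, since 32.7% of all genes rose and 32.7% fell. The median log2 fold change of the 10 genes was 0.51 in the double knockdown and -0.00 in the Trim28 knockdown against the induced control, 0.50 in the double knockdown against the Trim28 knockdown, and -0.46 in the induced control against uninduced cells, where the medians of all genes were 0.00, -0.00, 0.00 and -0.02. Set against uninduced cells, 1 gene rose and 4 fell in the double knockdown, beside 58.8% of all genes called (31.6% rose and 27.2% fell), and 1 rose and 7 fell in the Trim28 knockdown, beside 66.6% of all genes (34.1% rose and 32.6% fell). Libraries of the compared groups did not overlap for 8 of the 10 genes in the double knockdown against the induced control (45.1% of all genes), for 6 in the Trim28 knockdown against the induced control (38.9%), for 8 between the knockdowns (46.9%), and for 7 in the induced control against uninduced cells (64.6%). Against uninduced cells they did not overlap for 5 genes in the double knockdown (65.6%) and for 9 in the Trim28 knockdown (72.8%).

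**Figure D1:**
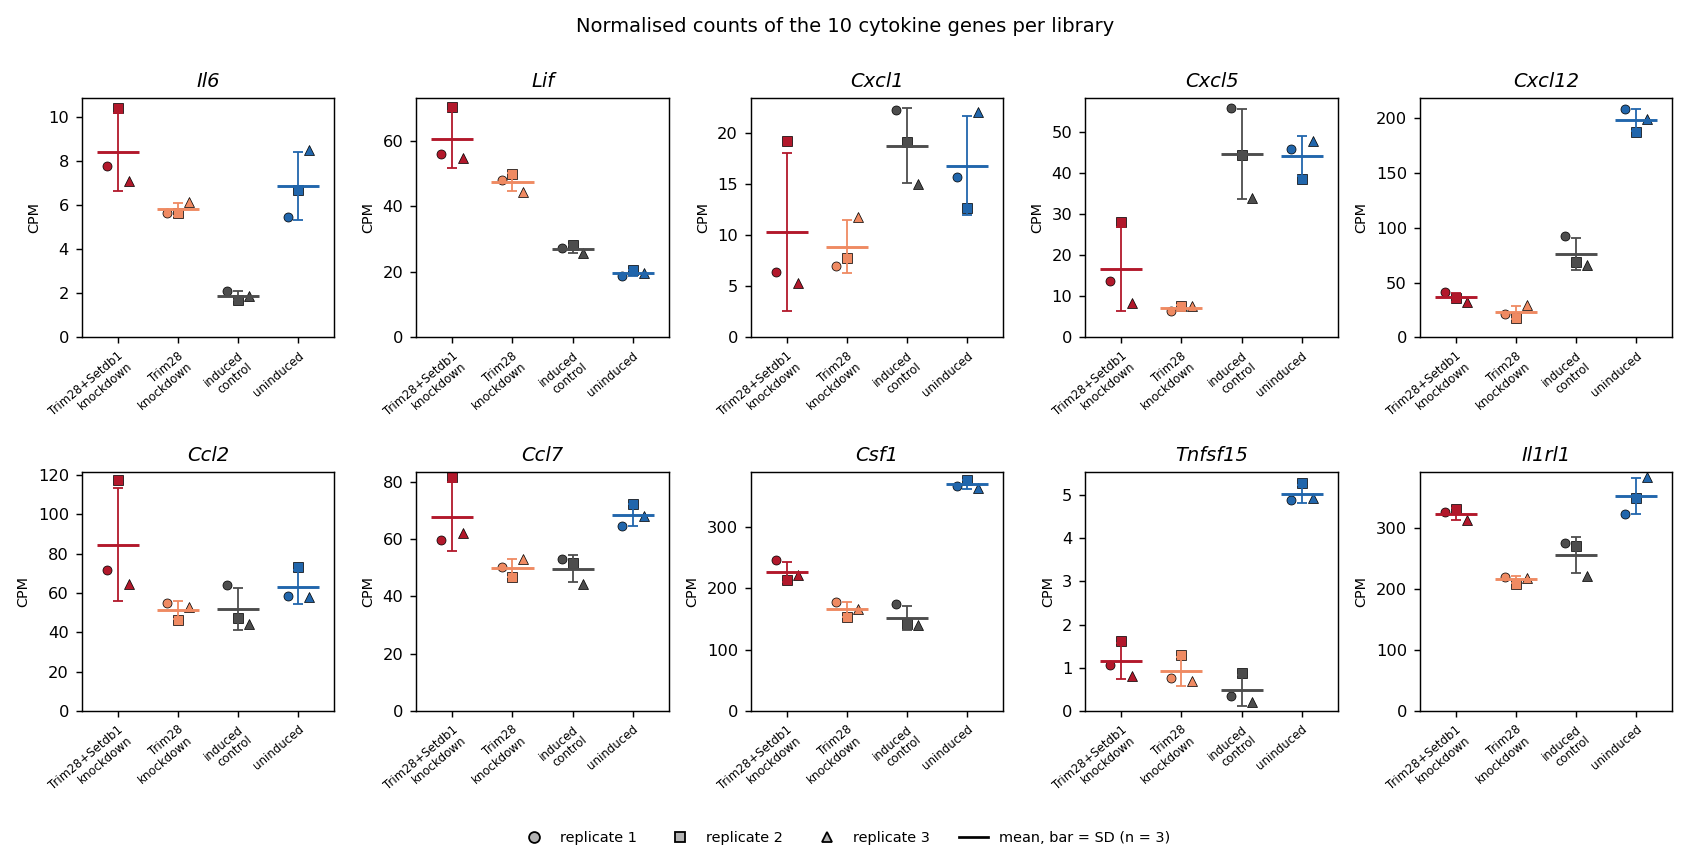
Normalised counts (CPM, y axis from 0) of the 10 cytokine genes in each library of the 4 groups, with a symbol per replicate number, the mean as a line and the SD as a bar (n = 3). Il6 is lowest in the 3 induced control libraries, Cxcl12 is highest in the 3 uninduced libraries, and replicate 2 of the double knockdown is the highest of its group for 8 of the 10 genes.

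**Figure D2:**
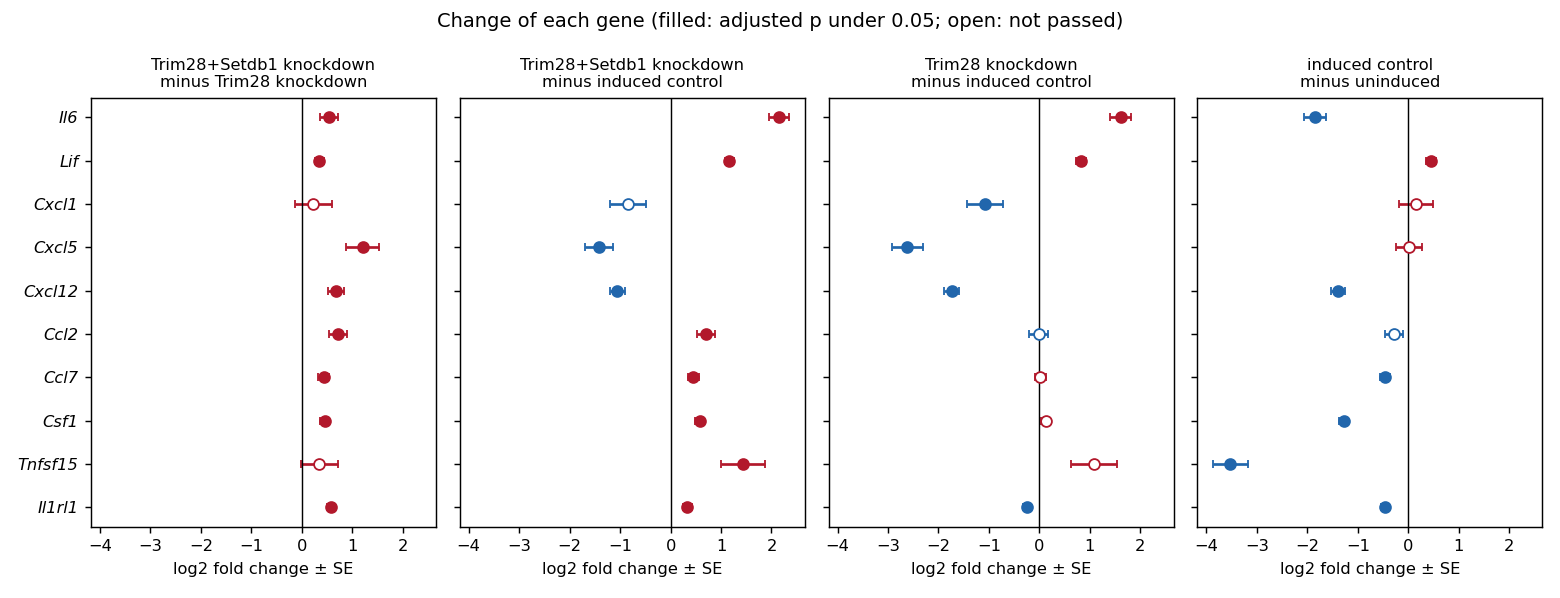
Log2 fold change (x axis) with its SE for each of the 10 genes in 4 comparisons, filled where the adjusted p was under 0.05. Il6 and Lif lie right of 0 in all 3 panels with a knockdown, and Cxcl5 and Cxcl12 lie left of 0 in both knockdowns against the induced control.

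Il6, a cytokine of inflammation and the acute phase, was lowest in induced cells with intact Trim28 and was higher with either knockdown. It had 7.76, 10.4 and 7.07 CPM in the 3 double knockdown libraries, 5.65, 5.61 and 6.12 CPM in the Trim28 knockdown, 2.10, 1.70 and 1.85 CPM in the induced control, and 5.43, 6.68 and 8.48 CPM in uninduced cells. The induced control libraries lay below all others, and both knockdown groups overlapped the uninduced libraries. Against the induced control Il6 rose with a log2 fold change of 2.15 ± 0.202 (SE) in the double knockdown (4.43-fold, adjusted p = 7.7e-07) and 1.61 ± 0.212 in the Trim28 knockdown (3.05-fold, adjusted p = 3.66e-05). In the induced control against uninduced cells it fell, with a log2 fold change of -1.85 ± 0.209 (adjusted p = 9.06e-07). Neither knockdown differed detectably from uninduced cells, with log2 fold changes of 0.30 ± 0.168 for the double knockdown (adjusted p = 0.138) and -0.24 ± 0.176 for the Trim28 knockdown (adjusted p = 0.237). Without uninduced library 3 the difference between the double knockdown and uninduced cells was 0.48 and passed (adjusted p = 0.0278). Counts were low, with 445 reads summed over the 3 libraries of the double knockdown, 289 in the Trim28 knockdown, 94 in the induced control and 322 in uninduced cells.

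The difference in Il6 between the knockdowns was small, with a log2 fold change of 0.54 ± 0.17 for the double over the Trim28 knockdown (adjusted p = 0.0323). It was larger without double knockdown library 3 (log2 0.65, adjusted p = 0.0244), and the call was lost without each other library of the 2 groups: the value was 0.35 without double knockdown library 2 (adjusted p = 0.164), 0.59 without double knockdown library 1 (adjusted p = 0.0509), and 0.51 to 0.58 without each Trim28 knockdown library (adjusted p = 0.0668 to 0.11).

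Lif, the stem cell maintenance factor, was the only gene of the 10 called as a rise with induction, and it rose further in both knockdowns. It had 56.2, 70.5 and 54.8 CPM in the double knockdown, 48.0, 49.98 and 44.5 CPM in the Trim28 knockdown, 27.2, 28.2 and 25.7 CPM in the induced control, and 18.7, 20.7 and 19.7 CPM in uninduced cells. The 4 groups were in strict order with no overlap between any of them. Against the induced control Lif rose 2.25-fold in the double knockdown (log2 1.17 ± 0.0954, adjusted p = 1.56e-07) and 1.76-fold in the Trim28 knockdown (log2 0.82 ± 0.0962, adjusted p = 1.11e-05). It was 1.37-fold higher in the induced control than in uninduced cells (log2 0.45 ± 0.102, adjusted p = 0.001). The step between the knockdowns was 1.27-fold (log2 0.35 ± 0.0917, adjusted p = 0.0125), and missed the threshold without double knockdown library 2 (log2 0.22, adjusted p = 0.0662) or without Trim28 knockdown library 3 (log2 0.30, adjusted p = 0.0687).

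The receptor genes of this family moved with their ligands in some comparisons and against them in others. Il6ra, the binding subunit for Il6, averaged 23.2 ± 1.6 CPM in the double knockdown, 28.9 ± 1.9 CPM in the Trim28 knockdown, 23.3 ± 0.86 CPM in the induced control and 11.9 ± 1.2 CPM in uninduced cells (SD, n = 3 each). It rose in the Trim28 knockdown against the induced control, as Il6 did (log2 0.31 ± 0.0907, adjusted p = 0.0185), and its double knockdown libraries overlapped the induced control. It was higher in the induced control than in uninduced cells (log2 0.97 ± 0.0981, adjusted p = 2.38e-07), where Il6 was lower. Il6st, the shared signalling subunit, averaged 404 ± 42 CPM in the double knockdown, 384 ± 17 CPM in the Trim28 knockdown, 508 ± 80 CPM in the induced control and 877 ± 46 CPM in uninduced cells. It fell in the induced control against uninduced cells, as Il6 did (log2 -0.79 ± 0.0986, adjusted p = 2.94e-06), and fell further against the induced control in the double knockdown (log2 -0.33, adjusted p = 0.015) and the Trim28 knockdown (log2 -0.41, adjusted p = 0.00629). Lifr, the binding subunit for Lif, fell in the Trim28 knockdown against the induced control (log2 -0.48 ± 0.129, adjusted p = 0.0124), where Lif rose.

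**Figure D3:**
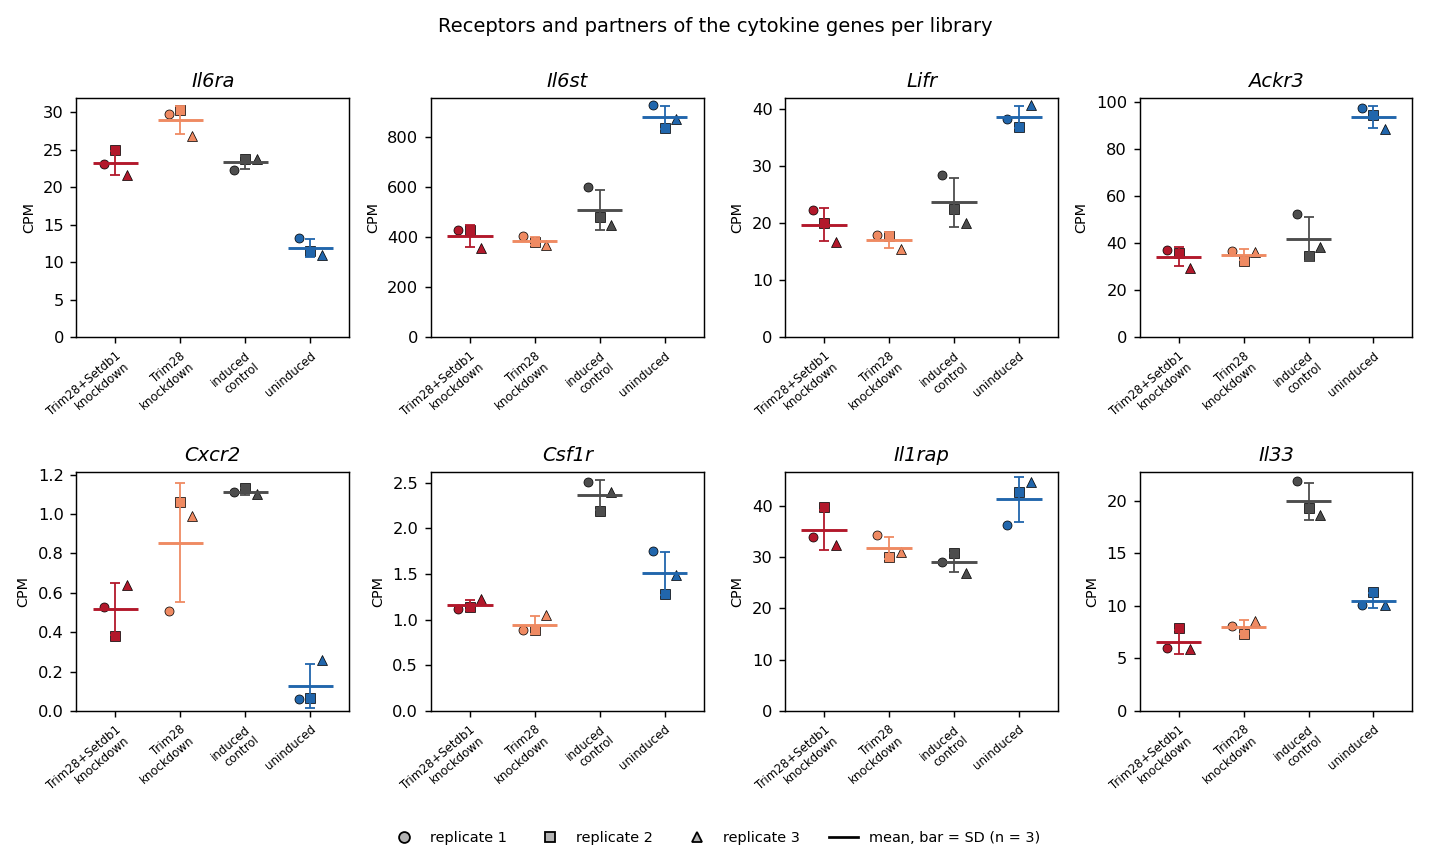
CPM (y axis from 0) of 8 receptor and partner genes in each library of the 4 groups, with the mean and SD (n = 3). Il6st, Lifr and Ackr3 are highest in uninduced cells, and Il33 is highest in the induced control.

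The neutrophil chemokines Cxcl1 and Cxcl5 showed no detectable change with induction, and both fell in the Trim28 knockdown, where Il6 and Lif rose. Cxcl5 had 13.7, 28.1 and 8.29 CPM in the double knockdown, 6.41, 7.74 and 7.58 CPM in the Trim28 knockdown, 55.9, 44.4 and 33.9 CPM in the induced control, and 45.9, 38.7 and 47.9 CPM in uninduced cells. All 6 knockdown libraries lay below all 6 libraries without a knockdown. Against the induced control Cxcl5 was 6.15-fold lower in the Trim28 knockdown (log2 -2.62 ± 0.31, adjusted p = 1.17e-05) and 2.66-fold lower in the double knockdown (log2 -1.41 ± 0.279, adjusted p = 0.000925). Induction itself gave a log2 fold change of 0.02 ± 0.263 (adjusted p = 0.96), whose sign changed with upper-quartile factors, limma-voom, the replicate block, and without induced control library 1 or uninduced library 2. Cxcl5 was higher in the double than in the Trim28 knockdown (log2 1.21 ± 0.325, adjusted p = 0.0143), and this call was lost without double knockdown library 2 (log2 0.60, adjusted p = 0.0869) or Trim28 knockdown library 1 (log2 1.13, adjusted p = 0.052), and with limma-voom (log2 1.04, adjusted p = 0.0523). Likewise, the fall in the double knockdown was larger without its library 2 (log2 -2.03, adjusted p = 7.24e-06).

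Cxcl1 had 6.41, 19.2 and 5.31 CPM in the double knockdown, 6.98, 7.80 and 11.8 CPM in the Trim28 knockdown, 22.2, 19.1 and 15.0 CPM in the induced control, and 15.7, 12.7 and 22.1 CPM in uninduced cells. All Trim28 knockdown libraries lay below both groups without a knockdown, and double knockdown library 2 lay among the controls. Cxcl1 in the Trim28 knockdown was 2.10-fold lower than in the induced control (log2 -1.07 ± 0.358, adjusted p = 0.0374), a call close to the threshold. It was lost without Trim28 knockdown library 1 (adjusted p = 0.124), Trim28 knockdown library 2 (adjusted p = 0.12) or induced control library 1 (adjusted p = 0.0878), with log2 values of -0.94, -0.99 and -0.94, and with DESeq2 (log2 -1.08, adjusted p = 0.0911). In the double knockdown the log2 fold change of -0.84 ± 0.349 did not pass (adjusted p = 0.0695), and without library 2 it was -1.68 and passed (adjusted p = 0.000231), as it did with limma-voom (log2 -1.05, adjusted p = 0.022). With no filter on low counts the value was almost the same as in the main fit (log2 -0.85), yet adjusted p was 2.13e-10. That setting fitted every gene with any read, and its far smaller p-value is not taken as support. The double knockdown did not differ detectably from the Trim28 knockdown in Cxcl1 (log2 0.23 ± 0.372, adjusted p = 0.708), and without double knockdown library 2 the value was -0.60 (adjusted p = 0.142).

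Cxcl1 and Cxcl5 lie in a cluster of CXC chemokine genes on chromosome 5, Cxcl5 at 90759299 to 90761625 and Cxcl1 at 90891241 to 90893115 in the coordinates of the deposited table. Of the 7 cluster genes in the table, 4 passed the filter. Ppbp, the pro-platelet basic protein gene next to Cxcl5, had 1.35, 2.06 and 1.11 CPM in the double knockdown, 1.14, 1.18 and 1.34 CPM in the Trim28 knockdown, 8.59, 4.86 and 5.95 CPM in the induced control, and 16.5, 14.4 and 11.4 CPM in uninduced cells. Like Cxcl5, it was lower in all 6 knockdown libraries than in any other library. Against the induced control it fell 4.29-fold in the double knockdown (log2 -2.10 ± 0.252, adjusted p = 9.97e-06) and 5.31-fold in the Trim28 knockdown (log2 -2.41 ± 0.266, adjusted p = 5.86e-06). Unlike Cxcl5, for which induction gave no detectable change, Ppbp also fell in the induced control against uninduced cells (log2 -1.11 ± 0.191, adjusted p = 8.37e-05); the difference between the genes was not tested. Cxcl15 averaged 0.131 CPM in the double knockdown, 0.119 CPM in the Trim28 knockdown, 0.327 CPM in the induced control and 2.91 CPM in uninduced cells. Pf4, Cxcl3 and Cxcl2 had 8, 46 and 39 reads over all 12 libraries.

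**Figure D4:**
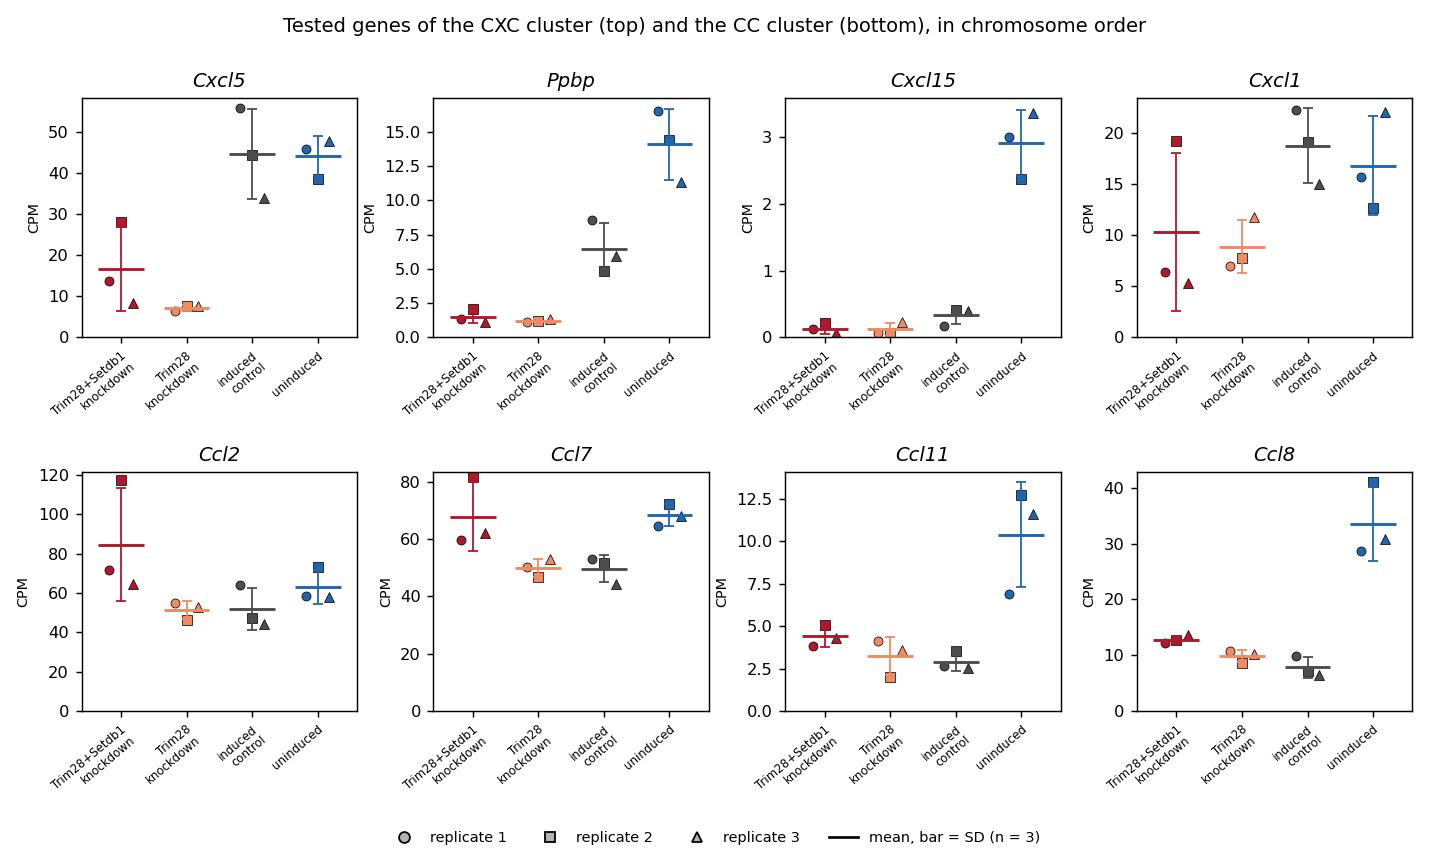
CPM (y axis from 0) of the tested genes of the CXC cluster (top row) and the CC cluster (bottom row) in each library, with the mean and SD (n = 3). Cxcl5 and Ppbp are lower in all 6 knockdown libraries than in any other library. Ccl2 and Ccl7 are highest of all in replicate 2 of the double knockdown, which is also the highest of its group for Cxcl5 and Ppbp.

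Cxcl12, a chemokine that stromal cells make constitutively and that binds the receptors Cxcr4 and Ackr3, stepped down with induction and further with each knockdown. It had 40.9, 36.3 and 32.3 CPM in the double knockdown, 21.3, 17.5 and 29.2 CPM in the Trim28 knockdown, 92.5, 68.3 and 66.4 CPM in the induced control, and 208, 188 and 200 CPM in uninduced cells. No groups overlapped, and the Trim28 knockdown was lowest. Cxcl12 was 2.62-fold lower in the induced control than in uninduced cells (log2 -1.39 ± 0.143, adjusted p = 3.05e-07). Against the induced control it fell a further 2.08-fold in the double knockdown (log2 -1.05 ± 0.149, adjusted p = 4.78e-05) and 3.34-fold in the Trim28 knockdown (log2 -1.74 ± 0.156, adjusted p = 6.43e-07). The double knockdown was above the Trim28 knockdown (log2 0.69 ± 0.159, adjusted p = 0.00572), with adjusted p at most 0.0389 under all 15 alternative settings. Of its receptors, Ackr3 averaged 34.2 ± 4.1 CPM in the double knockdown, 35.1 ± 2.5 CPM in the Trim28 knockdown, 41.8 ± 9.4 CPM in the induced control and 93.5 ± 4.7 CPM in uninduced cells, and Cxcr4 was at most 0.409 CPM in any library and was not tested.

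The monocyte chemokines Ccl2 and Ccl7 did not move detectably with the Trim28 hairpin alone and were higher in the double knockdown. Ccl2 had 71.6, 118 and 64.5 CPM in the double knockdown, 55.0, 46.3 and 53.1 CPM in the Trim28 knockdown, 64.2, 47.4 and 44.2 CPM in the induced control, and 58.5, 73.2 and 57.8 CPM in uninduced cells. Double knockdown library 2 was the highest of all, and the lowest double knockdown library was close to the highest induced control library. Ccl2 rose 1.63-fold in the double knockdown against the induced control (log2 0.70 ± 0.185, adjusted p = 0.0072) and 1.65-fold against the Trim28 knockdown (log2 0.72 ± 0.185, adjusted p = 0.011). Both calls rested on library 2: without it the values were 0.38 (adjusted p = 0.0527) and 0.40 (adjusted p = 0.059), and the second call was also lost without Trim28 knockdown library 2 (log2 0.64, adjusted p = 0.0595). In the Trim28 knockdown against the induced control the log2 fold change was -0.01 ± 0.188 (adjusted p = 0.964). Induction gave -0.28 ± 0.187 (adjusted p = 0.197), which passed without induced control library 1 (log2 -0.46, adjusted p = 0.0446). With no filter on low counts the value was nearly unchanged (log2 -0.29), and its adjusted p of 0.0037 is not taken as support, as for Cxcl1.

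Ccl7 had 59.6, 81.5 and 62.1 CPM in the double knockdown, 50.1, 46.9 and 53.1 CPM in the Trim28 knockdown, 53.2, 51.6 and 44.3 CPM in the induced control, and 64.5, 72.2 and 68.1 CPM in uninduced cells. The double knockdown lay above the Trim28 knockdown and the induced control without overlap, and overlapped uninduced cells. Ccl7 rose 1.37-fold in the double knockdown against the induced control (log2 0.45 ± 0.107, adjusted p = 0.00381) and 1.35-fold against the Trim28 knockdown (log2 0.44 ± 0.107, adjusted p = 0.0081). Without double knockdown library 2 these were 0.29 (adjusted p = 0.0254) and 0.28 (adjusted p = 0.0408). In the induced control against uninduced cells Ccl7 fell (log2 -0.46 ± 0.108, adjusted p = 0.00133), and the Trim28 knockdown differed from the induced control by 0.01 ± 0.109 (adjusted p = 0.946).

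Ccl2 and Ccl7 are neighbours on chromosome 11, Ccl2 at 82035571 to 82037453 and Ccl7 at 82045712 to 82047525 in the deposited coordinates, in a cluster with Ccl11, Ccl12 and Ccl8. Ccl8, a further monocyte chemokine, had 12.2, 12.7 and 13.5 CPM in the double knockdown, 10.8, 8.68 and 10.2 CPM in the Trim28 knockdown, 9.93, 7.12 and 6.40 CPM in the induced control, and 28.6, 41.1 and 30.7 CPM in uninduced cells. It was highest in uninduced cells, where the 3 libraries lay above all others. It rose in the double knockdown against the induced control (log2 0.71 ± 0.169, adjusted p = 0.00369) and fell in the induced control against uninduced cells (log2 -2.10 ± 0.16, adjusted p = 8.37e-09). Ccl11, an eosinophil chemokine, fell with induction as well (log2 -1.86 ± 0.252, adjusted p = 6.91e-06) and passed in neither knockdown against the induced control. The receptor gene Ccr2 was at most 0.117 CPM in any library.

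Csf1, the growth factor of macrophages, was most abundant in uninduced cells. It had 245, 213 and 221 CPM in the double knockdown, 178, 153 and 166 CPM in the Trim28 knockdown, 174, 142 and 140 CPM in the induced control, and 367, 377 and 363 CPM in uninduced cells. The Trim28 knockdown overlapped the induced control, and the double knockdown lay between these groups and the uninduced cells. Csf1 fell 2.43-fold in the induced control against uninduced cells (log2 -1.28 ± 0.0865, adjusted p = 1.73e-09). It rose 1.49-fold in the double knockdown against the induced control (log2 0.58 ± 0.0859, adjusted p = 7.84e-05) and 1.37-fold against the Trim28 knockdown (log2 0.45 ± 0.0856, adjusted p = 0.00141). These calls held without library 2 of the double knockdown, where Csf1 was 0.913 of the mean of the other libraries of its group. In the Trim28 knockdown against the induced control the log2 fold change was 0.12 ± 0.0861 (adjusted p = 0.328), and 0.22 without induced control library 1 (adjusted p = 0.048). Its receptor gene Csf1r averaged 1.16 ± 0.058 CPM in the double knockdown, 0.941 ± 0.094 CPM in the Trim28 knockdown, 2.37 ± 0.17 CPM in the induced control and 1.51 ± 0.23 CPM in uninduced cells (SD, n = 3 each), and fell against the induced control in the double knockdown (log2 -1.03, adjusted p = 0.00075) and the Trim28 knockdown (log2 -1.33, adjusted p = 0.000187).

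Tnfsf15, a TNF family ligand also called TL1A, was the least abundant of the 10 genes per exon length. It had 1.06, 1.62 and 0.817 CPM in the double knockdown, 0.761, 1.30 and 0.6999 CPM in the Trim28 knockdown, 0.351, 0.891 and 0.200 CPM in the induced control, and 4.87, 5.27 and 4.92 CPM in uninduced cells. All 9 induced libraries lay below the uninduced ones and overlapped between their groups. These levels rest on 62 reads summed over the double knockdown libraries, 46 in the Trim28 knockdown, 21 in the induced control and 236 in uninduced cells. Tnfsf15 was 11.5-fold lower in the induced control than in uninduced cells (log2 -3.52 ± 0.344, adjusted p = 1.57e-07), and without induced control library 2 the log2 fold change was -4.17 (adjusted p = 1.95e-08). It rose in the double knockdown against the induced control (log2 1.44 ± 0.43, adjusted p = 0.0157), though the groups overlapped. That call was lost without double knockdown library 2 (log2 1.102, adjusted p = 0.087) or induced control library 3 (log2 1.00, adjusted p = 0.102), and without induced control library 2 the value was 2.08 (adjusted p = 0.00177). For the Trim28 knockdown against the induced control the log2 fold change was 1.09 ± 0.455 (adjusted p = 0.0931). It passed at 1.74 without induced control library 2 (adjusted p = 0.0122) and was 0.65 without induced control library 3 (adjusted p = 0.363). With no filter on low counts it was unchanged at 1.09, and the adjusted p of 0.0312 there is not taken as support, as for Cxcl1.

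Il1rl1 was high in every group. Its largest change was a 1.63-fold fall in the Trim28 knockdown against uninduced cells (log2 -0.71 ± 0.0818, adjusted p = 1.11e-06). It had 326, 330 and 313 CPM in the double knockdown, 220, 209 and 219 CPM in the Trim28 knockdown, 275, 271 and 222 CPM in the induced control, and 324, 349 and 383 CPM in uninduced cells. The Trim28 knockdown was lowest, and the double knockdown overlapped uninduced cells. Il1rl1 rose in the double knockdown against the Trim28 knockdown (log2 0.58 ± 0.0816, adjusted p = 0.000129), a difference to which double knockdown library 2 added little (log2 0.56 without it, adjusted p = 0.000764). It also rose in the double knockdown against the induced control (log2 0.34 ± 0.0814, adjusted p = 0.00434). It fell in the Trim28 knockdown (log2 -0.25 ± 0.0817, adjusted p = 0.0363), a call lost without any of the 3 Trim28 knockdown libraries (adjusted p = 0.0622, 0.113 and 0.0668) and without induced control library 1 or 2 (adjusted p = 0.0931 and 0.0744), at log2 values of -0.27 to -0.20, and in a fit of these groups alone (log2 -0.25, adjusted p = 0.0549). In the induced control against uninduced cells it fell (log2 -0.46 ± 0.0815, adjusted p = 0.000112).

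The ligand of the Il1rl1 receptor, Il33, followed another course. It had 6.00, 7.91 and 5.90 CPM in the double knockdown, 8.12, 7.33 and 8.57 CPM in the Trim28 knockdown, 21.9, 19.3 and 18.7 CPM in the induced control, and 10.1, 11.3 and 10.1 CPM in uninduced cells. The induced control lay above and both knockdowns below all uninduced libraries. Il33 rose in the induced control against uninduced cells (log2 0.93 ± 0.12, adjusted p = 4.25e-06), and fell against the induced control in the double knockdown (log2 -1.59 ± 0.125, adjusted p = 1.04e-07) and the Trim28 knockdown (log2 -1.32 ± 0.123, adjusted p = 1.02e-06). Over all 17 receptor and partner genes, of which 9 were tested, 1 rose and 4 fell in each knockdown against the induced control (medians -0.33 in the double and -0.37 in the Trim28 knockdown), beside 36.7% of all tested genes called in the double and 24.9% in the Trim28 knockdown. Without double knockdown library 2 the counts in the double knockdown were 0 and 3. Without induced control library 1 they were 0 and 3 in each knockdown, so that the rise of Il6ra in the Trim28 knockdown was no longer called. In the induced control against uninduced cells 4 rose and 4 fell (median 0.17), beside 65.3% of all tested genes called.

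Levels of different genes were compared per kilobase of exon, from a GENCODE annotation of GRCm38. Ccl7 was the most abundant per length in every group, with 84.6 ± 15.0 CPM per kilobase in the double knockdown, 62.5 ± 3.93 in the Trim28 knockdown, 62.0 ± 5.89 in the induced control and 85.2 ± 4.79 in uninduced cells (SD, n = 3 each). Tnfsf15 was last and Il6 next to last in every group. In CPM per kilobase, Tnfsf15 averaged 0.349 in the double knockdown, 0.275 in the Trim28 knockdown, 0.144 in the induced control and 1.499 in uninduced cells, and Il6 averaged 3.46 in the double knockdown, 2.39 in the Trim28 knockdown, 0.776 in the induced control and 2.83 in uninduced cells. Ccl2 ranked second in the 3 induced groups, and in the double knockdown its 74.3 ± 25.3 CPM per kilobase did not differ from Ccl7 beyond their spread. In uninduced cells Csf1 ranked above Ccl2, which was at 55.5 ± 7.63 CPM per kilobase. Csf1 and Il1rl1 averaged 42.9 ± 3.18 and 46.8 ± 1.34 CPM per kilobase in the double knockdown, 31.4 ± 2.35 and 31.3 ± 0.876 in the Trim28 knockdown, 28.8 ± 3.64 and 37.1 ± 4.28 in the induced control, and 69.9 ± 1.35 and 51.1 ± 4.33 in uninduced cells. Lif ranked 5 in both knockdowns and 8 in the induced control and in uninduced cells, and Cxcl12 ranked 8 in both knockdowns, 7 in the induced control and 5 in uninduced cells.

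Double knockdown library 2 was the highest of its group for 8 of the 10, while 34.4% of all tested genes were highest in that library. Its level over the mean of the other libraries of the group was 3.28-fold for Cxcl1, 2.55-fold for Cxcl5, 1.73-fold for Ccl2 and Tnfsf15, 1.40-fold for Il6, 1.34-fold for Ccl7 and 1.27-fold for Lif. It was 1.04-fold for Il1rl1, 0.990-fold for Cxcl12 and 0.913-fold for Csf1. Without it, 5 genes rose and 3 fell in the double knockdown against the induced control, where 2233 of all tested genes rose and 2575 fell. Against the Trim28 knockdown 4 then rose, Cxcl12, Ccl7, Csf1 and Il1rl1, where 1262 of all tested genes rose and 1581 fell. Its total count of 18427147 and mitochondrial share of 1.78% lay within the range of the other libraries. Among the induced controls, library 1 was the highest for 8 of the 10 genes (35.5% of all genes) and library 3 for 0 (27.2%).

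**Figure D5:**
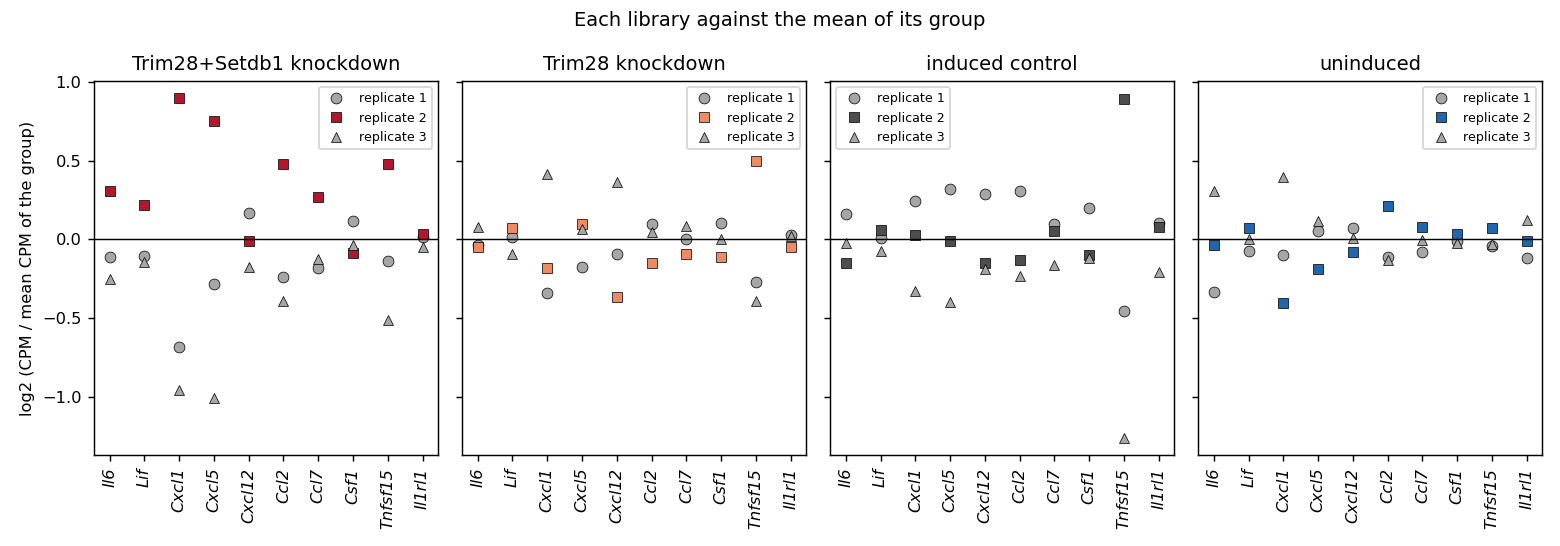
Log2 of each library's CPM over the mean of its group (y axis) for the 10 genes in the 4 groups, with replicate 2 in colour. Replicate 2 of the double knockdown lies above 0 for 8 genes, farthest for Cxcl1 and Cxcl5.

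The course of each gene over the 12 libraries was set beside that of the 12746 named genes with at least 1 CPM in a group, by the root mean square of the difference between centred log2 CPM values. This distance grows with a gene's own spread over the libraries (SD of log2 CPM), which was 0.266 for Ccl7, 0.305 for Il1rl1, 0.382 for Ccl2, 0.536 for Csf1, 0.672 for Lif, 0.725 for Cxcl1, 0.861 for Il6, 1.22 for Cxcl5, 1.26 for Cxcl12 and 1.32 for Tnfsf15, so distances do not rank likeness between genes of unlike spread. Among the 10 genes, the smallest distance was 0.148, between Ccl7 and Il1rl1, which also varied least, then 0.201 between Ccl2 and Ccl7, and the largest was 1.80, between Lif and Cxcl12. The nearest gene of all to Ccl2 was its neighbour Ccl7. Csf1 lay nearest to F2r, the thrombin receptor, at 0.0630, and Gpc4, a glypican, at 0.0843. Lif lay nearest to Lrrc15 at 0.0836 and Pstpip1 at 0.164, Il6 to Anks1b at 0.221 and Havcr2 at 0.247, and Cxcl12 to Slc7a2 at 0.210 and Ptn at 0.314. Il1rl1 lay nearest to Akr1b8 at 0.0780 and Klf6 at 0.0926, and Ccl7 to Glrx at 0.0938. Cxcl1 lay nearest to Slc1a2 at 0.384, and Tnfsf15 to Plin4 and Lpl, both at 0.479. The nearest gene to Cxcl5 was Trim28, at 0.487, with Mme at 0.507 and Ptgfr at 0.5085 almost as near. Trim28 was lowered by its own hairpin, so genes that are lower in both knockdowns tend to lie near it. Regulation of Cxcl5 by Trim28 was not tested. These are descriptions over 12 libraries that share their group means.

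Other cytokine and chemokine genes were set beside the 10. Of the 50 listed, 48 were in the table and 24 were tested, and in the double knockdown against the induced control 4 rose and 3 fell (median log2 -0.01), while in the Trim28 knockdown 2 rose and 4 fell (median -0.27). Of all tested genes 36.7% were called in the double and 24.9% in the Trim28 knockdown, so these counts do not stand out. Between the knockdowns 4 rose and 1 fell in the double knockdown (median 0.20), with as few as 2 called when single libraries were left out, and in the induced control against uninduced cells 4 rose and 13 fell (median -0.61). Of all tested genes 21.7% were called between the knockdowns and 65.3% on induction (32.7% rose and 32.7% fell). Clcf1, a further ligand that signals through gp130, averaged 25.9 ± 2.7 CPM in the double knockdown, 17.0 ± 2.0 CPM in the Trim28 knockdown, 17.8 ± 3.0 CPM in the induced control and 36.6 ± 0.49 CPM in uninduced cells (SD, n = 3 each), and rose against the induced control (log2 0.53 ± 0.118, adjusted p = 0.00228). Cxcl16 ran the other way, at 33.9 ± 3.1 CPM in the double knockdown, 49.1 ± 3.0 CPM in the Trim28 knockdown, 53.6 ± 1.8 CPM in the induced control and 3.42 ± 0.19 CPM in uninduced cells, and fell in the double knockdown against the induced control (log2 -0.66 ± 0.0799, adjusted p = 1.06e-05).

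Regulators of the NF-kappaB and C/EBP pathways comprised 30 genes, all tested, with no Fos or Jun gene of AP-1 among them. Of the 30, 8 rose and 3 fell in the double knockdown and 6 rose and 2 fell in the Trim28 knockdown against the induced control (medians 0.12 and 0.09). The share called was close to that of all tested genes, 36.7% in the double and 24.9% in the Trim28 knockdown, and without Trim28 knockdown library 2 3 rose and 2 fell in the Trim28 knockdown. Tlr2, a receptor for bacterial lipoproteins, averaged 26.8 ± 4.0 CPM in the double knockdown, 21.9 ± 1.2 CPM in the Trim28 knockdown, 10.1 ± 0.46 CPM in the induced control and 10.8 ± 0.64 CPM in uninduced cells (SD, n = 3 each). Like Il6, it rose against the induced control in the double knockdown (log2 1.40 ± 0.111, adjusted p = 1.14e-07) and the Trim28 knockdown (log2 1.11 ± 0.112, adjusted p = 2.4e-06). Irak3, an inhibitor of Toll-like receptor signalling, rose by a log2 of 1.00 in the double and 0.89 in the Trim28 knockdown. Il1r1, the receptor of interleukin 1, changed by -0.49 in the double and -0.87 in the Trim28 knockdown. Between the knockdowns 4 of the 30 rose and 3 fell, with as few as 1 called when single libraries were left out, and in the induced control against uninduced cells 6 rose and 13 fell (median -0.16). The shares of all tested genes called were 21.7% between the knockdowns and 65.3% on induction.

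Of 18 genes of JAK-STAT signalling downstream of Il6 and Lif, all tested, 5 rose and 3 fell in the double knockdown and 5 rose and 1 fell in the Trim28 knockdown against the induced control (medians 0.09 and 0.14), beside the same 36.7% and 24.9% of all tested genes. Without double knockdown library 1 or induced control library 3, 2 rose and 1 fell in the double knockdown. In the Trim28 knockdown 1 rose and 1 fell without its library 1, and 3 rose and 0 fell without its library 2. Jak2, a kinase bound to gp130, rose in the double knockdown (log2 0.53 ± 0.0779, adjusted p = 6.95e-05) and the Trim28 knockdown (log2 0.46 ± 0.0781, adjusted p = 4e-04), and Stat3, a substrate of these kinases, rose in the double knockdown (log2 0.31 ± 0.0859, adjusted p = 0.0103). Fos, an immediate early gene whose product is part of AP-1, fell in the double knockdown (log2 -0.98 ± 0.124, adjusted p = 1.66e-05). Between the knockdowns 0 of the 18 rose and 2 fell, and in the induced control against uninduced cells 5 rose and 6 fell (median -0.01). The shares of all tested genes called were again 21.7% and 65.3%.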

How the data were processed

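Whole-number read counts per gene, as the authors deposited them, were used for 12 libraries. Per the submitters' processing notes, the tools were TopHat2 2.0.12, HTSeq (version not stated) and Bowtie 1.1; the genome build and strand setting are not given in the sources used here. Since no strand is stated, antisense reads may or may not have been counted. No listed gene overlaps the 10. Deposited coordinates are printed as given.

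Counts were tested with edgeR 4.0.16 (quasi-likelihood F-test, TMM factors, minimum count 10, 1 term per group) in R 4.3.3, with Benjamini-Hochberg adjustment over 14520 genes. The script was tested on simulated counts. CPM values use TMM-scaled totals, whose ranges the results give; low counts limit precision. Groups and replicate numbers came from sample titles. Alternatives were other scalings, filters, DESeq2 1.42.0, limma-voom (limma 3.58.1), a fit of the compared groups alone, a replicate block, and leaving out each library.

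The 10 genes and the lists were chosen with earlier results of these data known. From each other list, up to 4 tested genes could be named per comparison, those of smallest p whose higher group averaged 1 CPM or more, besides members of the chemokine clusters, the receptors of the 10 genes and the targeted genes. Ptprc, Cpa3, Cdh5, Cxcr4 and Ccr2 were named for their role, after their values were seen. Sequences are RefSeq's. The labels state no pairing of replicate numbers. Same-numbered libraries of the double knockdown and the induced control deviated together (r = 0.31, 0.141 and 0.188, other numbers -0.208 to 0.0345). For the Trim28 knockdown with the induced control same-numbered r was 0.159, 0.061 and 0.0955, and between the knockdowns 0.191, 0.032 and 0.0927. Outside the double knockdown with the induced control, the lowest same-numbered r per comparison was -0.224 to 0.061. The highest r, 0.386, joined unlike numbers, induced control library 2 and uninduced library 3. These correlations therefore cannot decide whether the numbers pair, and the main fit used no pairing. Between replicates the chi-square per degree of freedom was 1.9 to 17.5, so none agreed within sampling noise.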

Additional observations from a re-analysis of the deposited data

How the results depend on the processing

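Of 900 values (10 genes in 6 comparisons, each under 15 alternatives), 833 kept their direction and their side of the threshold, 30 lost a call, 20 gained a call and 17 changed sign; none of the 17 had been called. The count of the 10 genes called was 8 in the double knockdown against the Trim28 knockdown, and 4 to 8 with single libraries left out; the count of all genes called there was 3154, 1829 to 2843 with single libraries left out, and 4849 when only these groups were fitted. With 1 library left out, counts called were 8 to 9 in the double and 4 to 6 in the Trim28 knockdown against the induced control (4 without Trim28 knockdown library 1 or 2), and 7 to 8 for induction.

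Sign changes were as follows. For Cxcl5 on induction, log2 values were -0.000465 with upper-quartile factors, -0.0129 with limma-voom, -0.00903 with the replicate block, -0.174 without induced control library 1 and -0.0708 without uninduced library 2, and up to 0.191 without another library. For Cxcl1 on induction the value was -0.0129 without uninduced library 2 (up to 0.398 without another), and in the double over the Trim28 knockdown -0.599 without double knockdown library 2 (up to 0.536 without another). For Ccl2 in the Trim28 knockdown over the induced control, values were 0.0493 without Trim28 knockdown library 2 and 0.157 without induced control library 1, and down to -0.129 without another. For Ccl7 there, they were -0.0165 with upper-quartile factors, -0.00409 with library totals only, -0.0421 without Trim28 knockdown library 3 and -0.0720 without induced control library 3, and up to 0.0555 without another. For Ccl7 in the double knockdown over uninduced cells, they were 0.0701 with library totals only, 0.0757 and 0.0417 without double knockdown libraries 1 and 3, and 0.0313 without uninduced library 2, and down to -0.170 without another. The cause was not tested.

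Library totals alone shifted the median of all genes by 0.13 on induction, where 61.7% of calls were then rises, against 50.01% with TMM, and in the double knockdown over the induced control 39.2% of calls were rises, against 49.5%. With the replicate block, 9 of the 10 genes were called in the double knockdown against the induced control, and no call of the 10 genes changed there. In the other comparisons 6 were called in the Trim28 knockdown against the induced control, 8 between the knockdowns and 7 on induction, as without the block. Whether replicate numbers pair libraries of different groups could not be decided. Depth limits Tnfsf15 and Il6 most.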
